A study of Mus musculus with 2 samples.

Results

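Aminoacyl-tRNA synthetases are the 35 genes described here, 20 for cytosolic enzymes and 15 for mitochondrial enzymes, whose symbols end in 2. Members were the m6A positions, each a unique chromosome, base and strand, that any of 17 lists placed in an exon of a synthetase gene on the same strand. There were 816 such positions of 160430 in the whole series, and they fell in 34 of the 35 genes, since Mars2 held none. The family was chosen by its function and selected on the listed positions of these same 17 lists, so its counts are descriptions.

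The study set 10 computational tools for nanopore direct RNA sequencing side by side on mouse 129 embryonic stem cells. Poly(A) RNA came from wild-type cells (WT) and from Mettl3 knockout cells (KO), in which exons 5 to 7 of Mettl3, the catalytic subunit of the m6A writer, had been replaced on both alleles by resistance genes in picked colonies. There was 1 library per condition. For 7 of the tools, namely xPore, Epinano, ELIGOS, m6Anet, Nanom6A, MINES and Tombo, there was a list per library. For the other 3, DRUMMER, DiffErr and Nanocompore, there was a single list of WT set against KO, called a comparison list below. xPore also needs both libraries, since it models them jointly and tests their difference. Its WT and KO lists are therefore not independent of each other. MINES takes values computed by Tombo as its input, so its lists are not independent of the Tombo lists. They are counted as separate tools below, and settings without the Tombo lists kept those of MINES. The lists hold positions without score, read number or coverage, so the depth behind each position is unknown and a position that is not listed may have had too few reads. No test across libraries was possible, positions of 1 gene share reads, and all intervals cover counting error only.

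The labels were checked first. From the start of Mettl3 to the last replaced exon, 9 positions were listed in WT or comparison and 0 in KO, and in the later exons 4 were listed in WT or comparison and 5 in KO. All 8 stem cell marker genes checked, among them Pou5f1, Sox2 and Nanog, had listed positions in both libraries. Of the 4 fibroblast feeder markers, Col1a2 and Col3a1 had none, Thy1 had 3 positions in WT and 1 other in KO, and Col1a1 had 3 in KO alone. Of the 4 endoderm and mesoderm markers, Gata4, Gata6 and T had none, while Sox17 had 12 positions in WT and 0 in KO.

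Aminoacyl-tRNA synthetases attach each amino acid to its tRNA and so prepare the substrates of the ribosome. The cytosol and the mitochondrion mostly use separate enzymes, all encoded in the nucleus, although Gars and Kars each encode the enzyme for both places. Several of the cytosolic enzymes are held with the scaffold proteins Aimp1, Aimp2 and Eef1e1 in the multisynthetase complex. m6A is written co-transcriptionally, mostly within the motif RRACH, where R stands for a purine and H for any base but guanine, is most frequent near stop codons and in long exons, and is sparse close to exon junctions.

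The windows below show some of the positions described in the results that follow. They cover positions listed by many tools in WT or comparison, positions absent from KO lists and positions repeated in both libraries. A position found in KO lists alone is shown as well. Other positions with as many tools as some of these, or more, are not shown. Each window is 21 bases of GRCm38 on the strand of the gene, 5′ to 3′, with the 5-mer centred on the listed adenine in capitals.
Yars, all 10 tools, chr4:129219123-129219143, plus strand: atggagatGGACTgaaactgt
Aars and Exosc6, all 10 tools and no KO list, chr8:111057472-111057492, plus strand: taggagatGGACCcagtgcag
Aars and Exosc6, 9 tools and no KO list, chr8:111057533-111057553, plus strand: gagaggatGGACCaggggact
Aars, 6 tools, chr8:111055547-111055567, plus strand: aataaaaaGGACCatgtgcaa
Mars, 6 tools, chr10:127296247-127296267, minus strand: ctggacatGGACAgtaataaa
Yars2, 5 tools and no KO list, chr16:16309421-16309441, plus strand: tcaagaatGGACTttccttac
Eprs, 4 tools and no KO list, chr1:185401548-185401568, plus strand: agcagtacAGACTgtttctac
Ears2, 4 tools and no KO list, chr7:122048178-122048198, minus strand: aggcaaggGGACAttttcctg
Eprs, 4 tools in both libraries, chr1:185407066-185407086, plus strand: tcacattcAAACCctgtcagt
Lars2, 4 tools in both libraries, chr9:123462095-123462115, plus strand: ctgggattAGACCgtcgtgag
Tars2, 3 KO lists and no WT list, chr3:95746036-95746056, minus strand: cgcctatgGGACCaggctgag

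The cytosolic genes held most of the positions. Of the 816 positions, 585 lay in the 20 cytosolic genes, with a median of 28.5 per gene and a range from 8 in Farsa, a subunit of the phenylalanine enzyme, to 63 in Aars, the alanine enzyme. The 15 mitochondrial genes held 231, with a median of 15.0 and a range from 0 in Mars2 to 30 in Iars2, the isoleucine enzyme of mitochondria. Relative to sequence, 608 positions were listed per 1000 RRACH bases of the cytosolic transcripts and 297 per 1000 of the mitochondrial ones, a ratio of 2.05 (95% interval 1.75 to 2.39). The annotated transcript of Mars2, the methionine enzyme of mitochondria, has 168 RRACH bases and no listed position, and without it the mitochondrial value was 379 and the ratio 1.60 (1.37 to 1.88). The tools were uneven in this. On 962 cytosolic and 777 mitochondrial RRACH bases, Nanom6A listed 330 and 14 positions in WT and m6Anet 150 and 16. Tombo listed 267 and 120, ELIGOS 30 and 4, and xPore 27 and 6. Epinano listed 73 and 60, and MINES 42 and 32. No setting left out the Nanom6A lists. The 8 enzymes of the multisynthetase complex (Eprs, Dars, Iars, Kars, Lars, Mars, Qars and Rars) had 634 positions per 1000 RRACH bases and the other cytosolic enzymes 588. The highest density was that of Kars, the lysine enzyme, with 892 per 1000.

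**Figure D1:**
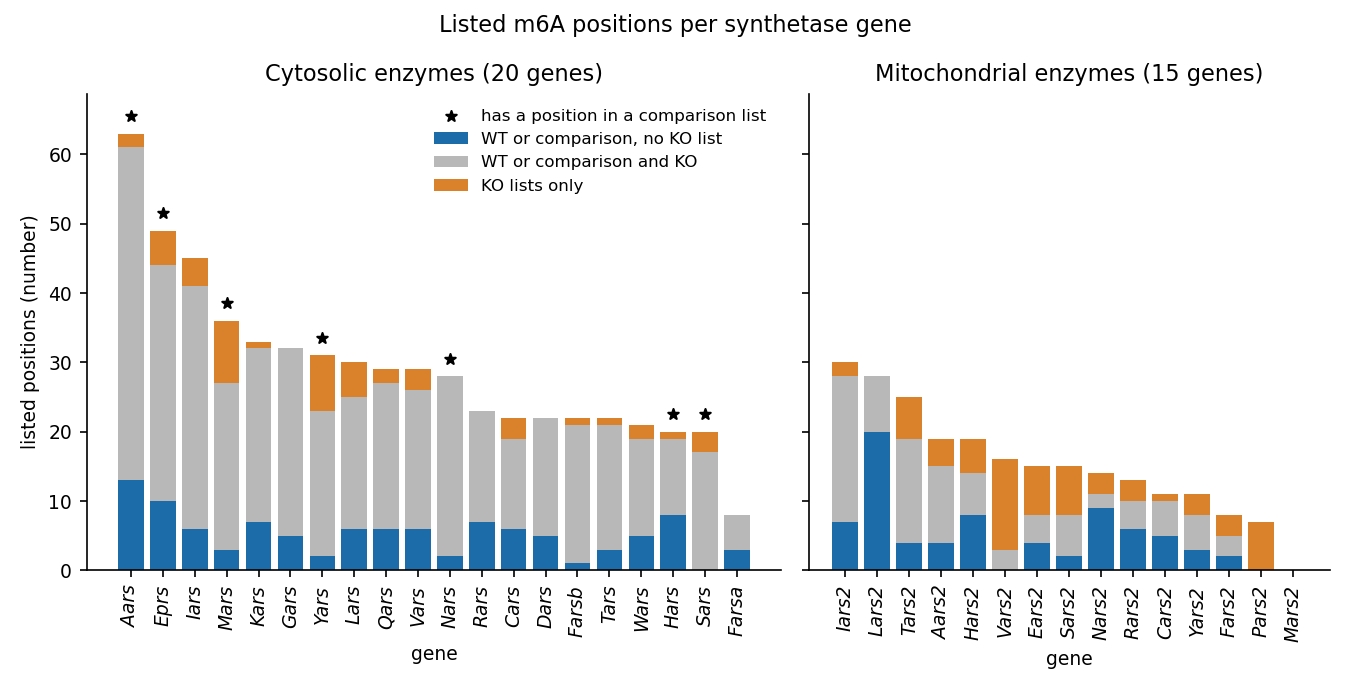
Number of listed positions in each synthetase gene, with cytosolic enzymes on the left and mitochondrial enzymes on the right. Colours split each bar into positions in a WT or comparison list and no KO list, positions in both, and positions in KO lists only, and a star marks a gene with a position in a comparison list. Stars stand over 7 cytosolic genes and over no mitochondrial gene, Lars2 is mostly blue, and Vars2 and Pars2 are mostly or wholly orange.

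With the tools pooled, the 2 classes also differed in how often a position was repeated in KO. Of 702 positions in a WT or comparison list, 178 (25.4%, 22.3 to 28.7) were in none of the 7 KO lists, against 41.0% of all WT or comparison positions in the series. The share was 19.4% (16.3 to 23.0) for the cytosolic genes, 104 of 535, and 44.3% (37.0 to 51.9) for the mitochondrial genes, 74 of 167, which left the cytosolic share below that of all positions and put the mitochondrial interval around it. Without the Tombo lists the shares were 29.5% (25.5 to 34.0) and 59.0% (49.5 to 68.0), against 53.0% of all positions. Lars2 alone held 20 of those 74, and without Lars2 the mitochondrial share was 38.8% (31.2 to 47.1). The mix of tools differed between the classes too. Nanom6A listed 330 of the 535 cytosolic positions in WT and 14 of the 167 mitochondrial ones. In the other direction, 114 positions were listed in KO only. These made up 8.55% of the cytosolic positions (6.54 to 11.1) and 27.7% of the mitochondrial ones (22.3 to 33.8), against 19.6% of all positions. The mitochondrial value fell to 21.2% without Pars2 and Vars2. Of the 114 positions, 101 were listed by a single tool. Tombo listed 63 of the 114 and Nanom6A 20.

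The tools ranged from nearly as many synthetase positions in KO as in WT to far fewer. Tombo listed 387 positions in WT and 365 in KO, a ratio of KO to WT of 0.943 (0.815 to 1.09), and MINES listed 74 and 65, a ratio of 0.878 (0.620 to 1.24). Nanom6A listed 344 in WT and 278 in KO, a ratio of 0.808 (0.687 to 0.949). All 3 intervals held the ratio over all positions of the same tool, which was 0.905, 0.703 and 0.831, and that of Nanom6A lay below equal numbers. m6Anet listed 166 and 120, a ratio of 0.723 (0.567 to 0.920) against 0.580 over all positions. Without the Exosc6 exon it listed 151 and 119, a ratio of 0.788 (0.614 to 1.01), whose interval lay above 0.580. Of these positions 76 were in both lists, 75 in WT only and 43 in KO only. ELIGOS listed 34 and 5 (0.147, 0.0449 to 0.378), Epinano 133 and 45 (0.338, 0.236 to 0.478) and xPore 33 and 13 (0.394, 0.190 to 0.769), and their ratios over all positions, 0.259, 0.339 and 0.446, also lay within these intervals. Of the WT positions of Tombo in synthetase genes, 72.1% (67.4 to 76.3) were in its KO list too, more than the 59.7% over all positions. That share was 80.9% for the cytosolic genes and 52.5% for the mitochondrial genes.

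m6Anet, which scores the signal of each read with a trained network, moved in opposite directions in the 2 classes of enzyme. In the cytosolic genes it listed 150 positions in WT and 84 in KO, a ratio of 0.560 (0.424 to 0.736), near its 0.580 over all positions. In the mitochondrial genes it listed 16 in WT and 36 in KO, a ratio of 2.25 (1.22 to 4.34). It had a position in all 20 cytosolic genes in each library, but in 4 mitochondrial genes in WT and 9 in KO. Tars2, the threonine enzyme, and Ears2, the glutamate enzyme, each had 0 m6Anet positions in WT and 6 in KO, while Iars2 had 11 in WT and 8 in KO. The number of reads per gene in each library was not analysed here, and m6Anet was run with a higher minimum of reads than the other tools, so more KO reads and more called bases cannot be told apart in this count.

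**Figure D2:**
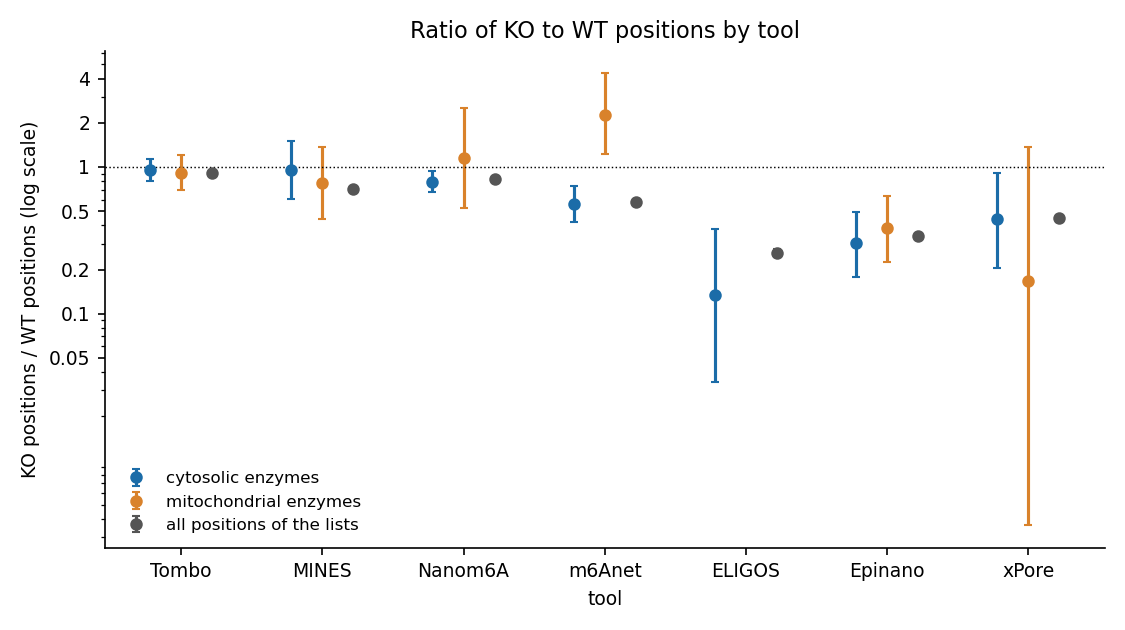
Ratio of the number of KO positions to the number of WT positions for each of the 7 tools with both lists, on a log axis, for cytosolic enzymes, mitochondrial enzymes and all positions of the lists. Points are ratios and bars 95% exact binomial intervals, the dotted line marks equal numbers, and ELIGOS is not drawn for the mitochondrial enzymes because its WT list held 4 positions there. The mitochondrial m6Anet ratio of 2.25 is the only point whose interval lies wholly above the line.

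The comparison lists held 22 synthetase positions, 2.70% of the 816 against 1.97% of all positions, and they lay in 7 genes. All 7 encode cytosolic enzymes: Aars held 10, Yars 5, Mars and Hars 2 each, and Eprs, Nars and Sars 1 each. Of all genes with a listed position in the series, 14.5% had a position in a comparison list. Nanocompore listed 15 of the 22, DiffErr 11 and DRUMMER 7, and 9 were in at least 2 of the lists. The mitochondrial genes had 0 of 231, which allows a share of up to 1.30% when the limit is set at 3 counts, and no position there was listed by more than 5 of the 10 tools in WT or comparison. In the whole family, 19 of 702 WT or comparison positions (2.71%) had at least 6 tools, against 1.98% over the series.

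Much of this rests on a stretch that Aars shares with another gene. Aars (ENSMUSG00000031960) runs on the plus strand of chromosome 8, and its transcript ENSMUST00000034441, from 111033902 to 111057664, has 21 exons and a 3′ UTR of 2460 nt. The single exon of Exosc6 (ENSMUSG00000109941), a subunit of the RNA exosome, lies within that 3′ UTR from 111056339 to 111057664 and ends at the same base. Of the 63 Aars positions, 20 lay in the Exosc6 exon, and with them 8 of the 10 comparison positions and 10 of the 11 positions with at least 6 tools. Of the 20, 3 were named in the lists for Exosc6 alone, none of them a comparison position, and 2 comparison positions were named for Exosc6 alone in the comparison lists and for Aars in others. Reads of the 2 genes cannot be told apart in the lists. Without the Exosc6 exon the family had 14 comparison positions of 796 (1.76%, below the 1.97% of all positions), 11 from Nanocompore, 4 from DiffErr and 3 from DRUMMER, and 9 of 683 WT or comparison positions (1.32%) had at least 6 tools.

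The rest of the Aars transcript was listed by fewer tools. Up to the Aars stop codon, 38 positions were listed on 52 RRACH bases, the most tools on 1 position was 4, and 1 position was in a comparison list. In the 3′ UTR before Exosc6 there were 5 positions on 20 RRACH bases. In the Exosc6 exon there were 20 positions on 22 RRACH bases, and up to 10 tools listed 1 position. The position of Aars alone with most tools was at 111055557, 355 nt after the stop codon, in the GGACC window shown above. Tombo, Nanom6A, m6Anet, ELIGOS, DiffErr and DRUMMER listed it, and Nanom6A listed it in KO as well. The other comparison position outside Exosc6, at 111055101, was coding and rested on Nanocompore and Nanom6A.

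**Figure D3:**
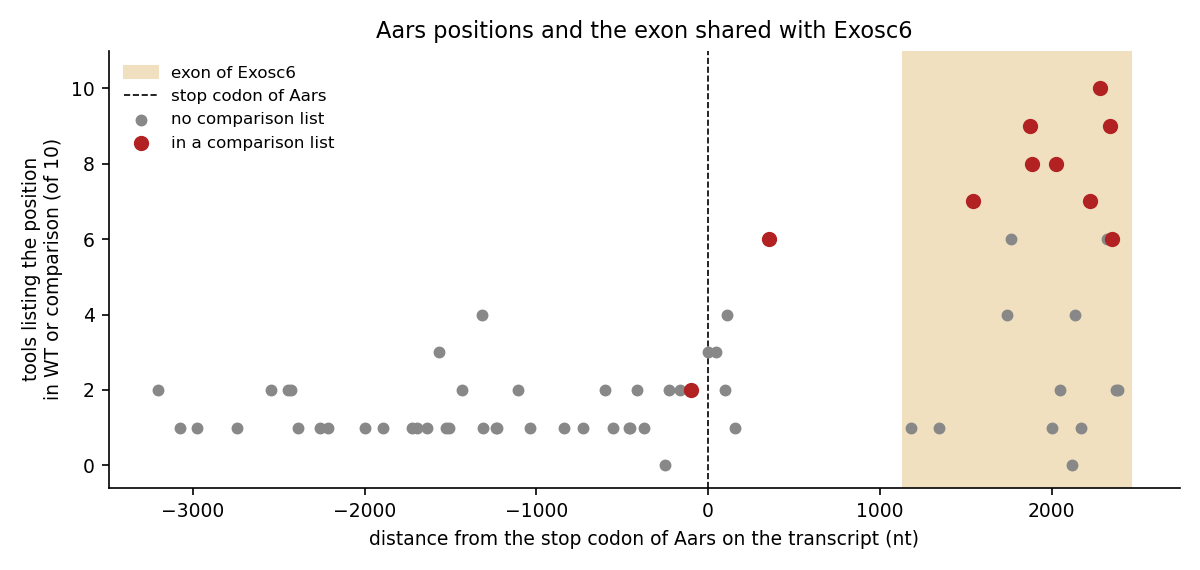
Positions of Aars by their distance from the Aars stop codon on the spliced transcript, in nt, and by the number of the 10 tools that listed each in WT or comparison. The shaded stretch is the exon of Exosc6, the dashed line is the stop codon of Aars, and red points are in a comparison list. All points at 7 tools or more lie in the shaded stretch, and 6 is the highest value outside it.

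Only 2 synthetase positions were in all 3 comparison lists, 0.245% of the 816 against 0.324% of all positions, and both were listed by all 7 other tools in WT. The first is in Yars (ENSMUSG00000028811), the tyrosine enzyme, at chr4:129219133 in exon 13, the last exon, 594 nt after the stop codon in GGACT. Tombo, Nanom6A and m6Anet listed it in KO too. The second is at chr8:111057482 in GGACC, 292 nt after the stop codon of Exosc6 and 2280 nt after that of Aars, and no KO list held it. A neighbour at 111057543, also GGACC, was in 9 of the tools, all but Nanocompore, and in no KO list.

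Yars was the gene with most comparison positions that belong to it alone. All 5 lay in its 3′ UTR, at 98, 110, 503, 548 and 594 nt after the stop codon, and 3 were GGACT and 2 GGACA. The position at 503 nt was listed by 8 tools, those at 98 and 548 nt by 6 and that at 110 nt by 5. Every 1 of the 5 was in a KO list as well, through Nanom6A in each case. Nanom6A listed 15 Yars positions in WT and 25 in KO. Of the 31 Yars positions, 8 were in KO lists only. Epinano listed 5 and 0, ELIGOS 4 and 0, and xPore 3 and 0.

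Mars, the methionine enzyme of the cytosol, had its pair of comparison positions 6 bases apart, at 127296257 and 127296263 on the minus strand of chromosome 10, 39 and 33 nt after the stop codon. Each was GGACA, and each was listed by Tombo, Nanom6A, m6Anet, ELIGOS and Epinano in WT. DiffErr listed the first and Nanocompore the second, and Nanom6A listed the first in KO and Tombo the second. Hars, the histidine enzyme, had positions at 275 and 103 nt after its stop codon in the Nanocompore list alone of the 3, and the first of them was in no KO list. Nars, the asparagine enzyme, had 1 at 42 nt and Sars, the serine enzyme, 1 at 13 nt, both also from Nanocompore. The single comparison position of Eprs, the enzyme for glutamate and proline, was coding, in exon 20 at 185407678, from Nanocompore. Each of these genes but Hars had KO positions in nearly the same number as in WT or comparison or more: 33 against 27 in Mars, 20 against 17 in Sars, 26 against 28 in Nars and 39 against 44 in Eprs, while Hars had 12 against 19.

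Most comparison positions lay in the last exon and far from exon junctions, as did those of the whole series. Of the 22, 20 lay in a 3′ UTR and 21 in the last exon, and 20 were over 100 nt from the nearest exon junction. The region is that of the synthetase transcript, and 3 of the 8 positions in the Exosc6 exon were in the coding sequence of Exosc6. Without the Exosc6 exon these were 12, 13 and 12 of 14. Over all comparison positions of the series, 61.4% were in a 3′ UTR, 82.5% in the last exon and 85.0% over 100 nt from a junction. For the 22, the intervals of the last exon (78.2 to 99.2) and of the junction distance (72.2 to 97.5) held these values. That of the 3′ UTR (72.2 to 97.5) lay above 61.4%. For the 14 without the Exosc6 exon, all 3 intervals held the series values (60.1 to 96.0, 68.5 to 98.7 and 60.1 to 96.0). All 22 had 1 of the 4 sequences to which the output of MINES is limited (GGAC followed by any base but guanine, or else AGACT), against 83.6% over the series. The interval was 85.1 to 100% for the 22. For the 14 without the Exosc6 exon it was 78.5 to 100%, which held 83.6%. Synthetase positions as a whole lay mostly elsewhere. Of them, 78.9% were coding and 25.3% in the last exon, against 56.6% and 51.3% of all positions. Over 100 nt from a junction lay 24.3% (21.5 to 27.4), against 54.2%. These gaps are from the whole series, and the make-up of the synthetase transcripts is not taken out of them. Of the RRACH bases of the transcripts with a listed position, 30.0% were over 100 nt from a junction, or 36.8% when the Mars2 transcript is added.

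Eprs, with 49 positions, held both positions absent from KO lists and positions repeated in KO by several tools. At 185401558, in exon 18, an AGACT was listed in WT by Tombo, Nanom6A, m6Anet and xPore and in no KO list. At 185407076, in exon 19, an AAACC was listed by Tombo, Nanom6A, ELIGOS, Epinano and xPore in WT and by all of these but xPore in KO, and at 185373044, in exon 5, an AAACA was listed by Tombo, Nanom6A and ELIGOS in both.

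Iars, Gars, Kars and Nars were the remaining cytosolic genes with most WT or comparison positions. Iars, the isoleucine enzyme, had 45 positions, 41 in WT or comparison and 39 in KO, with at most 4 tools on 1 position. A copy of Iars elsewhere in the genome matched its transcript at 95% identity or more in stretches that held 33 of the 45, and reads of Iars and of the copy cannot be told apart there. Gars, the glycine enzyme, had 32 positions, of which 27 were repeated in KO and none was in KO only, and Nanom6A accounted for 29 of them in WT. Kars had 33, with 25 in both. Nars had 28, with 26 in both. Cars, the cysteine enzyme, had a position listed by 7 tools in WT although no comparison list held it. Across the 20 cytosolic genes, KO positions outnumbered WT or comparison positions in 3, and 5 genes had no position in KO lists only.

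Among the mitochondrial genes, Lars2 had the most positions in no KO list and Pars2 and Vars2 had almost only KO positions. Lars2 (ENSMUSG00000035202), the leucine enzyme of mitochondria, had 28 positions in WT and 8 in KO, and 20 were in no KO list. Tombo listed 18 in WT and 5 in KO, MINES 10 and 2, and Epinano 9 and 2. Nanom6A listed 6 in each library, ELIGOS 1 in each, and m6Anet 0 in WT and 2 in KO. The positions divided along the transcript. From 2754 nt before the stop codon to 102 nt after it there were 22 positions, all in WT and 2 in KO. From 145 to 505 nt after it there were 6, and all 6 were in both libraries. These 6 lay in a stretch from 116 to 513 nt after the stop codon that matched 5 places on 4 other chromosomes at 95% identity or more. The 3′ UTR of mouse Lars2 is known for a segment that resembles large-subunit ribosomal RNA, and such RNA was not compared here. Reads of Lars2 and of its copies cannot be told apart in the lists. The position repeated by most tools, at 123462105 in AGACC, which Tombo, Nanom6A, ELIGOS and Epinano each listed for both libraries, was in this stretch.

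Pars2, the proline enzyme, had 7 positions, all in KO only, with 6 in Tombo, 2 in MINES and 1 in Epinano. Vars2, the valine enzyme, had 3 positions in WT and 16 in KO, and Tombo listed 1 in WT and 12 in KO. Nars2, the asparagine enzyme, had 11 in WT and 5 in KO, with 9 in no KO list, and Tombo listed 8 and 1. In these genes Nanom6A and m6Anet listed nothing in either library. Whether the 2 libraries differed in reads for these genes was not tested, since the lists give no read numbers.

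**Figure D4:**
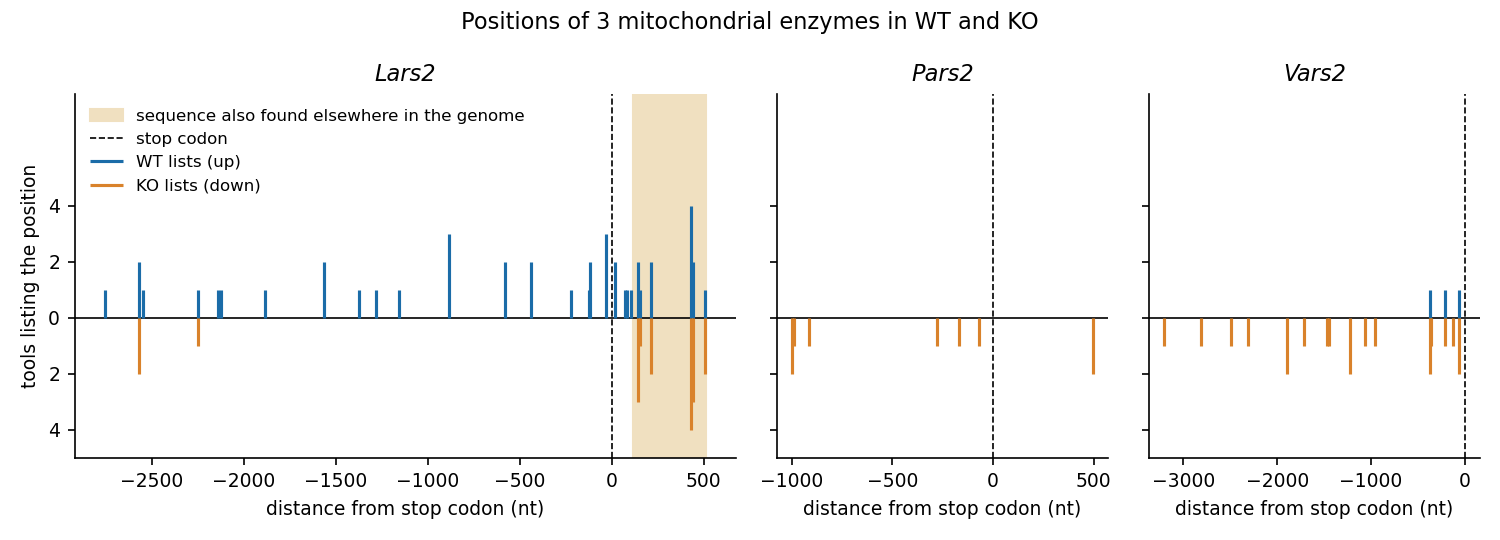
Positions of Lars2, Pars2 and Vars2 by distance from the stop codon on the spliced transcript, in nt, with the number of tools in WT drawn upward and in KO downward. The shaded stretch of Lars2 matches other places in the genome. In Lars2 6 of the 8 KO marks lie in the shaded stretch, Pars2 has KO marks only, and in Vars2 the WT marks are the 3 within 400 nt of the stop codon.

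Among the other mitochondrial genes with most positions, Iars2 had 28 in WT and 23 in KO, Tars2 19 and 21, and Aars2 15 and 15. In Iars2 a GGACC at 185297542 was listed by Tombo, MINES and xPore in both libraries, and a GGACA in the first exon at 185329142 by Tombo, MINES and m6Anet in both. Its GGACT at 185289444 was listed by Tombo, MINES and Nanom6A in WT and by Tombo, MINES and m6Anet in KO. Aars2, the alanine enzyme, had a GGACT at 45520382, 66 nt before the stop codon, listed by Tombo, MINES, m6Anet and Epinano in WT and by Tombo and m6Anet in KO. Tars2 held the only synthetase position that was in at least 3 KO lists and in no WT or comparison list. This GGACC at 95746046 was found by Tombo, MINES and Epinano, and MINES works on values from Tombo. The mitochondrial position with most tools was in Yars2, the tyrosine enzyme, a GGACT at 16309431, 58 nt before the stop codon. Tombo, Nanom6A, ELIGOS, Epinano and xPore listed it in WT, and no KO list held it. The GGACA of Ears2 at 122048188, in exon 4, was likewise in no KO list and was listed by Tombo, MINES, Epinano and xPore in WT.

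The share of GGACT was higher in no KO list than in both libraries in the mitochondrial genes, and its intervals overlapped once the Tombo lists or Lars2 were left out. Among mitochondrial positions in no KO list, 28.4% (19.4 to 39.5) were GGACT, 21 of 74, against 10.8% (5.95 to 18.7) of those in both libraries. GGACT made up 61 of the 609 RRACH bases of the mitochondrial transcripts with a listed position. Over the series the shares were 13.7% in no KO list and 10.6% in both. Without Lars2 the mitochondrial values were 27.8% (17.6 to 40.9) and 11.8% (6.52 to 20.3), and their intervals overlapped. Without the Tombo lists they were 19.4% (11.4 to 30.9) and 16.3% (8.12 to 30.0), and for the whole family 10.9% and 9.63%. With all 4 sequences of MINES, the mitochondrial shares were 70.3% (59.1 to 79.5) and 50.5% (40.6 to 60.5), with intervals that overlapped narrowly, against 42.2% of the RRACH bases and 47.2% and 40.4% over the series. Without Lars2 these were 66.7% (53.4 to 77.8) and 52.9% (42.4 to 63.2). Without the Tombo lists they were 72.6% (60.4 to 82.1) and 62.8% (47.9 to 75.6). Of the mitochondrial positions in KO only, 35.9% (25.3 to 48.2) had 1 of the 4. In the cytosolic genes GGACT made up 4.81% (2.07 to 10.8) of the positions in no KO list, 5 of 104, and 8.58% (6.29 to 11.6) of those in both, against 7.07% of the RRACH bases of the cytosolic transcripts. The 4 sequences made up 39.4% and 39.2% there, against 35.3% of the RRACH bases.

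Over the whole family, distance to the stop codon and to exon junctions differed less between positions in no KO list, in both and in KO only. Within 200 nt of the stop codon lay 18.5% (13.5 to 24.9) of the synthetase positions in no KO list, 17.9% (14.9 to 21.5) of those in both and 14.2% of those in KO only, against 13.2% (11.7 to 15.0) of the RRACH bases. The same 3 shares over the series were 20.8%, 23.4% and 15.0%. The synthetase shares pool enzymes that differ, and mitochondrial genes held 74 of the 178 positions in no KO list but 93 of the 524 in both. In the cytosolic genes alone the shares in no KO list and in both were 10.6% and 16.0%. In the mitochondrial genes they were 29.7% and 26.9%. Over 100 nt from a junction lay 25.8%, 24.6% and 20.4%, and the intervals overlapped, while over the series the values were 60.9%, 50.5% and 51.9%. Here too the order changed by enzyme, with 18.3%, 22.5% and 12.2% in the cytosolic genes and 36.5%, 34.4% and 26.6% in the mitochondrial ones. By class of enzyme, 25.1% (20.0 to 31.1) of mitochondrial positions and 14.6% (11.9 to 17.6) of cytosolic positions were near the stop codon, against 20.9% of all positions in the series. The RRACH bases of the 2 classes differed in the same direction, with 16.3% (13.5 to 19.4) and 11.3% (9.48 to 13.5). Over 100 nt from a junction lay 32.9% (27.2 to 39.2) of mitochondrial and 20.9% (17.8 to 24.4) of cytosolic positions.

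**Figure D5:**
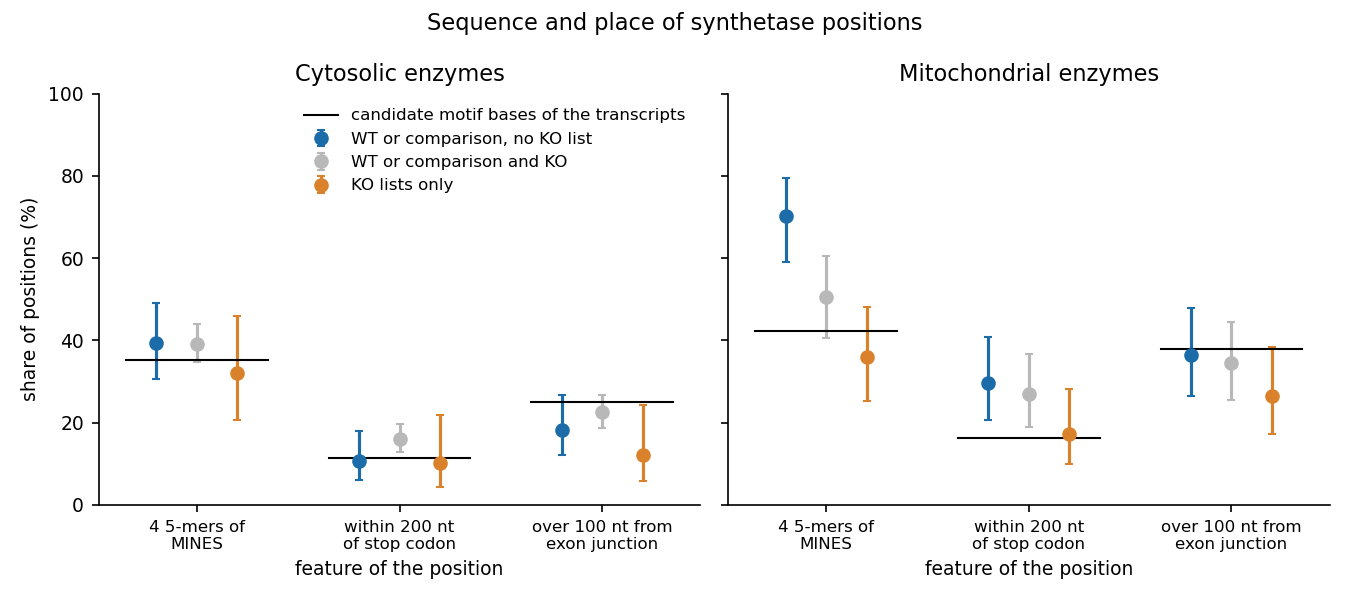
Share of synthetase positions, in percent, with 1 of the 4 sequences of MINES, within 200 nt of the stop codon, and over 100 nt from an exon junction, for cytosolic and mitochondrial enzymes. Points are shares and bars 95% Wilson intervals for each class of position, and black lines give the share among RRACH bases of the transcripts. The mitochondrial positions in no KO list stand at 70.3% for the 4 sequences, and the interval of those in both, at 50.5%, overlaps theirs.

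Genes that work beside the synthetases were counted from lists chosen for their roles. Over all positions of the series 1.97% were in a comparison list, so a count of 0 on so few positions is not read further. The 3 scaffold genes of the multisynthetase complex had 33 positions in WT or comparison and 25 in KO, and Aimp2 and Eef1e1 each had 2 comparison positions. The 6 genes of the mitochondrial amidotransferase and of special tRNA charging, such as Gatb and Mtfmt, had 62 and 45, and 0 in a comparison list. The 4 subunits of elongation factor eEF1, which carries charged tRNA to the ribosome, had 77 and 77, with 29 in a comparison list. Of these, 23 were among the 24 positions of Eef1a1. The 3 genes of deacylation and editing had 37 and 30 and 0 comparison positions. The 13 genes of the response to uncharged tRNA had 205 and 204, with 8 in a comparison list, among them 2 in Asns, the asparagine synthetase, and 3 in Psat1, an enzyme of serine synthesis. Eif2ak4, the kinase that senses uncharged tRNA, had 0 positions in WT and 22 in KO, and its partner Gcn1l1 had 23 in WT and 11 in KO. Outside the family as set here, the synthetase genes Tarsl2 and Wars2 had 11 and 0 positions in WT or comparison, and 9 each in KO. Whether the libraries differed in reads for any of these genes was not tested.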

How the data were processed

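Native poly(A) RNA of 1 WT and 1 Mettl3 KO library was sequenced on MinION flow cells by the authors, who basecalled with Guppy, aligned to the GENCODE transcriptome of mm10 (GRCm38) with Minimap2, ran 10 tools and deposited lists of positions. The deposited values are positions and no other score or ratio. For each tool the authors took the cut-off with the highest sum of F1 scores (a balance of precision and recall) against miCLIP and miCLIP2 sites. The members and gene lists were chosen with earlier results of these data known. A gene of the lists is not reported here.

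Positions were placed in exons of GENCODE M21 on the same strand (the authors used an earlier release of this build), and 5-mers and windows were read from GRCm38.p6. Of 816 positions, 812 read RRACH in the genome and 815 lay on the main transcript of their gene, all in RRACH once spliced. The main transcript was the coding one with most listed positions. Copies of the transcripts were sought in the genome with BLAST 2.17.0, at 95% identity over 100 bases. Shares have Wilson and ratios exact binomial 95% intervals. They were tested on simulated independent counts, which lack the positions shared by 2 lists and the reads shared within a gene. That test does not show how well the intervals hold for these lists. No p-value was computed. Genes described singly were the 6 cytosolic and 4 mitochondrial ones with most WT or comparison positions, those with a comparison position or with none in WT. Sites named were those in all 3 comparison lists, the 5 with most tools and no KO list, the 5 with most tools in both libraries, those in at least 3 KO lists alone and the 5 mitochondrial ones with most tools. For the genes described singly, positions in any comparison list were named as well, except for some in the Exosc6 exon. Ties were taken in genomic order, which left out 2 of 4 positions level at 4 tools in no KO list, 28 of 31 level at 3 tools in both libraries and 13 of 14 mitochondrial ones level at 3 tools. Cars, Vars2, Nars2, Ears2 and the genes of m6Anet were named after their values were seen. Python 3.11.15, numpy 2.4.6, pandas 2.3.3, scipy 1.17.1, pysam 0.24.0 and matplotlib 3.10.9 were used.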

Additional observations from a re-analysis of the deposited data

How the results depend on the processing

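Of 188 recomputed values under other settings, 170 stayed within the interval of the reported value, or for counts within 1.5 times of it, and 18 moved. Counting 1 site per line gave 2392 positions and 41 in comparison lists, since a position then counts once in each list, which alone gave 2095 and 33, and again for each transcript. Without positions in exons of another gene the comparison count was 14. Without the Tombo lists the share in no KO list was 35.2%, with 29.5% for cytosolic and 59.0% for mitochondrial genes, and the ratio of densities 2.66. With the KO list of the same tool the share was 29.3%. A window of 100 nt around the stop codon gave 11.8%, 10.5% and 6.19% for positions in no KO list, both and KO only, and 400 nt gave 30.3%, 29.8% and 26.5%. Over 200 nt from a junction lay 15.7% and 17.2% of those in no KO list and in both. In settings added after seeing the data, the mitochondrial share in KO only was 21.2% without Pars2 and Vars2, and the ratio of densities was 1.60 without Mars2. No paired analysis was possible because each condition had 1 library. The lists hold no coverage, so depth could not be weighed, and rates or cut-offs could not be changed.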
